A study of Danio rerio with 6 samples.

Results

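The genes described here are 8 markers of Müller glia, the radial glial cells that span the vertebrate retina: glula, glulb, apoeb, cahz, gfap, vim, sox2 and sdpra. They were picked by symbol, and all 8 were found among the 9211 gene rows of the authors' deposited table. The study compared whole retinas of 6-month-old zebrafish of the AB* background by poly-A-selected RNA-seq. The mutant group held 3 samples of fish homozygous for thrb stl628, an allele of the gene for thyroid hormone receptor beta, and the wild-type group held 3 samples from the same clutches. Each sample pooled 2 retinas of a male with 2 of a female, so sexes and single fish cannot be separated.

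Müller glia clear glutamate from the synapses of retinal neurons and turn it into glutamine, buffer potassium and acid, carry lipids, and support the photoreceptors. In many vertebrates they react to retinal injury with gliosis, in which glial intermediate filaments such as GFAP accumulate. In zebrafish, Müller glia can also re-enter the cell cycle after photoreceptor loss and give rise to new neurons. A marker gene stands for these cells only as far as other retinal cells do not express it. apoeb is also made by microglia, sox2 by some amacrine cells, cahz by red blood cells, and sdpra by vascular cells.

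For each gene the authors gave a mean normalized count per genotype, a log2 fold change of mutants over wild-type, and the SE, or standard error, of that change. Values of single samples are not among them, so the overlap of the 3 mutant with the 3 wild-type samples cannot be shown and depth per library is unknown. The authors' own p-value tests for a change beyond 2-fold and is 1 for all 8 markers. Calls below therefore come from a Wald test against no change, which divides the deposited log2 fold change by its SE and refers it to the normal distribution. The test was two-sided, p-values were adjusted over all 9211 genes by the Benjamini-Hochberg method, and the threshold was 0.05. As a check of the labels, thrb averaged 413 normalized counts in mutants and 3301 in wild-type fish. Rod opsin, rho, stood at 713968 in mutants and 592476 in wild-type, so the samples held the retina's main photoreceptor transcript in both groups. The rows hold genes whose larger group mean is at least 50.04, and the lowest such mean among the markers was 526, for sox2. Counts are not divided by transcript length, so counts of different genes do not rank their transcript levels.

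None of the 8 markers rose and none fell in the mutant retina by the Wald test. Of all genes listed, 0.879% rose and 1.21% fell, or 2.08% in all, so 0 of 8 is a share near the background. Without adjustment, 1 marker, cahz, had a p under 0.05 in the upward direction and none in the downward direction, against 3.76% and 4.54% of all genes, or 8.29% in both directions. By the authors' own test 0 of 8 passed, against 0.076% of all genes. The median log2 fold change of the 8 markers was 0.020, beside 0.00063 for all genes, and the values ran from -0.12 for apoeb to 0.34 for cahz. In a whole-retina sample, fewer Müller glia and less RNA per cell cannot be told apart, and opposite changes of both could offset each other.

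**Figure D1:**
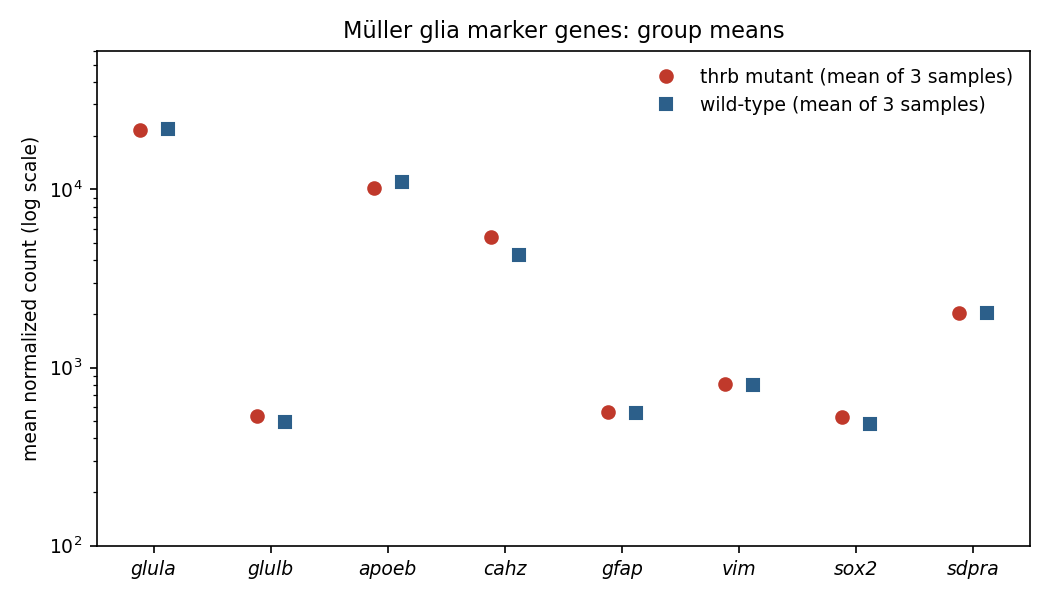
Mean normalized count (log scale) of each of the 8 Müller glia markers in thrb mutant (circles) and wild-type (squares) retina, each the authors' mean of 3 samples; no error can be drawn, since values of single samples are not given. The symbols of a pair lie close together for 7 genes, and cahz shows the widest gap, 5383 in mutants and 4259 in wild-type.

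The glutamine synthetase genes glula and glulb encode the enzyme that turns glutamate and ammonia into glutamine, the classic Müller glia marker in adult retina. glula averaged 21534 normalized counts in mutants and 21947 in wild-type fish. Its log2 fold change per the authors' deposited table was -0.027 (SE 0.075), a difference of -1.88% with a 95% interval from -11.4% to 8.69% (Wald test, adjusted p = 0.997). glulb, the paralog with far fewer counts, had a mean of 533 in mutants and 494 in wild-type. The log2 fold change of glulb was 0.11 (SE 0.12) per the authors' deposited table, with an interval from -8.38% to 27.5% (adjusted p = 0.997, Wald test). The change of glula was thus 0.14 below that of glulb on the log2 scale, with a 95% interval of the difference from -0.42 to 0.14, which includes 0. Reads that match both paralogs may have been lost or split by the counting, and this cannot be examined in the table.

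Apolipoprotein E, encoded by apoeb, packages lipids for transport between cells and is secreted by glia. Its mean normalized count was 10213 in mutants and 11062 in wild-type retina, the only marker besides cahz whose group means differed by more than 500 counts. The log2 fold change was -0.12 (SE 0.084) per the authors' deposited table, a difference of -7.67% with an interval from -17.7% to 3.54% (Wald test, adjusted p = 0.944). The wild-type mean was thus the higher one, but the interval includes 0.

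The carbonic anhydrase gene cahz was the marker with the largest difference. It encodes a cytosolic enzyme that converts carbon dioxide and water to bicarbonate and protons, by which Müller glia and red blood cells handle the carbon dioxide of respiration. Its mean normalized count was 5383 in mutants and 4259 in wild-type, 26.4% higher, with a 95% interval from 3.99% to 53.5%. The log2 fold change was 0.34 (SE 0.14) per the authors' deposited table, larger in size than that of 93.3% of all genes. The unadjusted p was 0.0186 and the adjusted p 0.348 (Wald test), so the difference did not pass. With a t distribution in place of the normal one, at the 4 residual degrees of freedom that 6 samples in 2 groups leave, the interval widened to -4.12% to 66.5% and included 0. Of 14 red blood cell genes, 2 were listed, sptb with 294 in mutants and 322 in wild-type, and the globin hbaa1 with 55.1 in mutants and 61.7 in wild-type. Both had the lower mean in mutants, and hbaa1 lay near the lowest level listed, a larger group mean of 50.04. Neither passed, at -0.13 (SE 0.16) for sptb and -0.18 (SE 0.30) for hbaa1 on the log2 scale per the authors' deposited table, and the part of blood in the cahz value was not tested.

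Glial filaments were measured by gfap, the glial fibrillary acidic protein, and vim, vimentin, an intermediate filament of radial glia and many mesenchymal cells. gfap averaged 564 normalized counts in mutants and 555 in wild-type fish. Its log2 fold change of 0.023 per the authors' deposited table had the largest SE among the markers, 0.18, so that the 95% interval ran from -21.0% to 30.6% (Wald test, adjusted p = 0.997). The mean of vim was 806 in mutants and 796 in wild-type, a log2 fold change of 0.018 (SE 0.11) per the authors' deposited table. For vim the interval ran from -0.20 to 0.24 on the log2 scale, also with an adjusted p of 0.997 in the Wald test. A 1.5-fold gain of either filament transcript lay outside these intervals.

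The remaining markers were a transcription factor and a membrane protein. sox2, of the SoxB1 family that keeps neural progenitors undifferentiated, is retained in adult Müller glia and had a mean of 526 in mutants against 485 in wild-type. Its log2 fold change was 0.12 (SE 0.13) per the authors' deposited table, an interval from -8.39% to 28.9% (Wald test, adjusted p = 0.997). sdpra, now named cavin2a, encodes a coat protein of caveolae, small pits of the plasma membrane. Its means were 2022 in mutants and 2035 in wild-type, the nearest of all 8 as a ratio, with a log2 fold change of -0.010 (SE 0.12) per the authors' deposited table, and an interval from -15.1% to 16.1%. With an SE of that size the sign of sdpra is undetermined, and scaling to equal sums of the group means, which adds 0.020 to every gene alike, puts it at 0.0097.

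**Figure D2:**
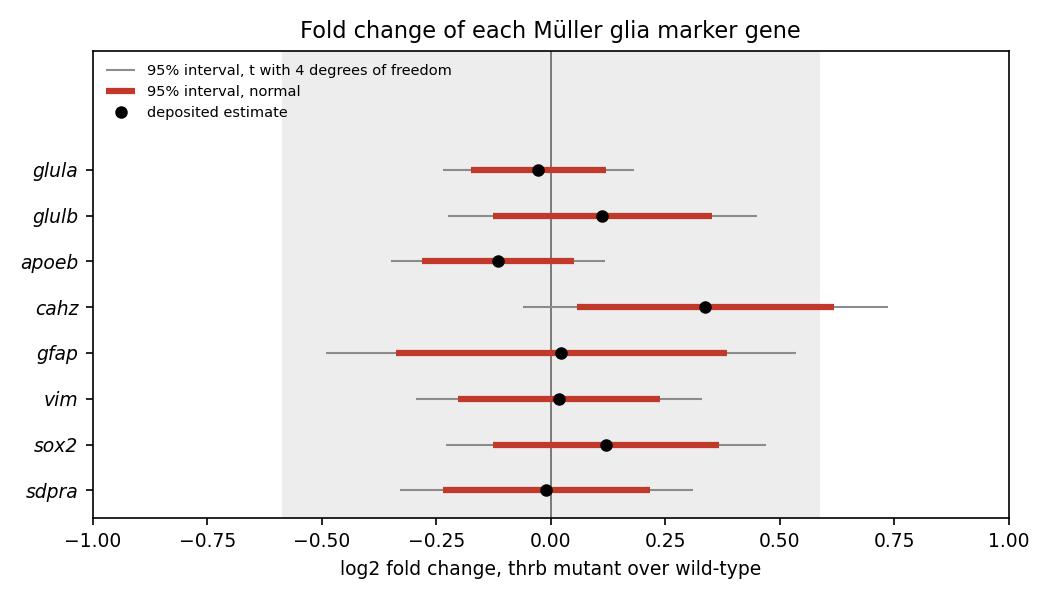
Log2 fold change (thrb mutant over wild-type) of each marker, with 95% intervals from the normal distribution (thick red) and from a t distribution with 4 degrees of freedom (thin grey); the shaded band spans changes of less than 1.5-fold either way. The thick intervals of 7 markers include 0 and stay inside the band, while that of cahz runs from 0.056 to 0.62.

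The intervals give a range for the change of each marker, while the size of estimate needed for a call is a separate matter. For 7 of the 8 markers the 95% interval from the normal distribution lay inside a 1.5-fold change in either direction, as it did for 81.4% of all genes, and cahz was the exception. To pass the Wald test over all genes, a marker needed a fold change of at least 1.19 for glula, 1.21 for apoeb and 1.29 for vim. sdpra needed 1.30-fold, glulb 1.32-fold, sox2 1.33-fold, cahz 1.39-fold and gfap 1.52-fold. Estimates smaller than these would not have passed, and a true change of such a size could be estimated below it and missed.

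The precision of a marker was not set by its count alone. glula was measured with the smallest SE of the 8 (0.075), below that of every one of the 200 genes nearest to it in mean count, whose median was 0.096. The SE of gfap (0.18) exceeded that of 98% of its 200 neighbours in count, with a median of 0.12, and the SE of cahz (0.14) exceeded 93.5% of its neighbours, with a median of 0.094. For sdpra the SE of 0.12 stood above 80.5% of such neighbours, while those of glulb, vim and sox2 stood above 42%, 55% and 61% and that of apoeb above 19.5%. Under the authors' model a larger SE at the same count goes with a larger estimated spread between samples of a group, which was the case for gfap and cahz.

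**Figure D3:**
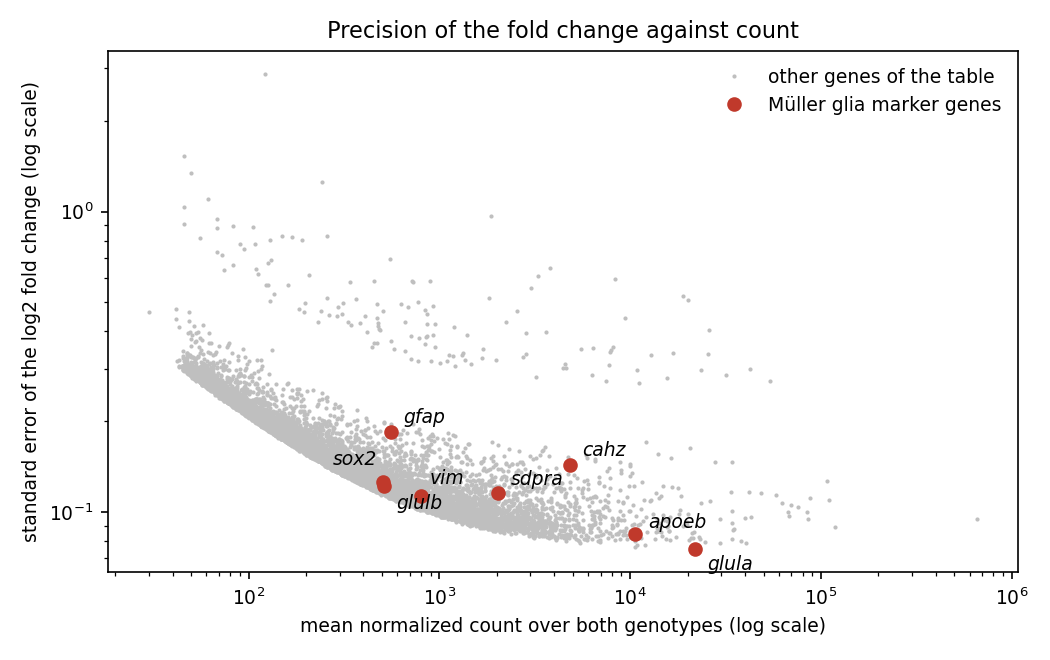
Standard error of the deposited log2 fold change against mean normalized count over both genotypes (both log scales) for the 8 markers (red) and the other genes of the table (grey). gfap and cahz, with standard errors of 0.18 and 0.14, lie above most genes of like count, and glula lies at the lower edge at 0.075.

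The log2 fold changes of the 8 markers had an SD of 0.14 among themselves, with cahz furthest from the rest. The SE of a single marker had a median of 0.12 and ran from 0.075 for glula to 0.18 for gfap. The markers are different genes of the same samples, so their SD does not measure error. Of the 28 differences between pairs of markers, 2 had a 95% interval without 0, both with cahz, and these intervals are not adjusted for the number of pairs. The log2 fold change of apoeb minus that of cahz was -0.45 (interval -0.78 to -0.13), and that of glula minus that of cahz was -0.36 (-0.68 to -0.047). Set against glula, cahz gave 250 counts per 1000 glula counts in mutants and 194 in wild-type, while apoeb gave 474 in mutants and 504 in wild-type. gfap stood at 26.2 counts per 1000 glula counts in mutants and 25.3 in wild-type, and vim at 37.4 in mutants and 36.3 in wild-type. These differences treat the errors of the paired genes as independent, which genes of the same samples need not be. Added together, the 8 markers made up 41582 normalized counts in mutants and 41633 in wild-type, which was 0.389% of the summed group mean in mutants and 0.384% in wild-type. The sum is mostly glula and apoeb, and without them it was 9835 in mutants and 8624 in wild-type, a gap that came mainly from cahz.

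A wider list of 37 Müller glia genes that leaves out these 8 had 25 listed in the table, of which none rose and none fell by the Wald test. Their median log2 fold change was 0.12, beside 0.00063 for all genes. Point estimates were higher in mutants for 18 of 25 (72%), against 50.1% of all genes. Without adjustment, 3 had a p under 0.05 in the upward direction and 1 in the downward direction, against 3.76% and 4.54% of all genes. The members with the most counts were slc1a2b, a glial glutamate transporter, with 10623 in mutants and 9865 in wild-type, and mdka, a midkine growth factor, with 9199 in mutants and 8730 in wild-type. The log2 fold change was 0.11 (SE 0.085) for slc1a2b and 0.075 (SE 0.13) for mdka, per the authors' deposited table. Singled out after their values were seen, the genes with an unadjusted p under 0.05 were her6, a Hairy-type repressor downstream of Notch (0.48, SE 0.16), aqp4, the water channel of glial endfeet (0.37, SE 0.13), aqp1a.1, another water channel (0.24, SE 0.11), and the glutamate transporter slc1a2a (-0.36, SE 0.14) per the authors' deposited table. Their adjusted p-values in the Wald test were 0.0951, 0.153, 0.388 and 0.27. Counts in each list below stand beside the same shares of all genes, with 0.879% that rose and 1.21% that fell after adjustment. Without adjustment the shares were 3.76% higher and 4.54% lower.

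Other genes of the glutamate cycle gave no call either. Of 17 listed genes for glutamate uptake, glutaminase, transamination and glutamine export, glula and glulb among them, none rose and none fell. At an unadjusted p under 0.05 in the Wald test 1 gene, slc1a2a, was lower, against 4.54% of all genes. The list's median log2 fold change was 0.016. After glula, the gene with the most counts was the amino acid transporter slc38a2, at 10388 in mutants and 10201 in wild-type (log2 fold change 0.026, SE 0.11, per the authors' deposited table).

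In the lipid transport list, which holds apoeb, none of 11 listed genes rose or fell in the Wald test, and the median was -0.072. At an unadjusted p under 0.05 in that test 1 gene was lower, against 4.54% of all genes. clu, or clusterin, another apolipoprotein, had 4713 counts in mutants and 4953 in wild-type (log2 fold change -0.072, SE 0.12, per the authors' deposited table). The carbonic anhydrase and bicarbonate transport list had 10 listed genes, none of which passed, with a median of 0.059. The genes at an unadjusted p under 0.05 in the Wald test were cahz and ca7, against 8.29% of all genes in both directions. The abundant paralog ca2 had 7032 counts in mutants and 5512 in wild-type, a log2 fold change of 0.35 with an SE of 0.29 per the authors' deposited table. ca7, singled out after its value was seen, lay in the other direction at -0.36 (SE 0.16, in the same table of the authors), and the 10 point estimates were 6 above and 4 below 0. Reads shared between such paralogs cannot be traced here.

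Among 12 listed intermediate filament genes, 1 fell and none rose by the Wald test, and the one that fell was inaa. This internexin filament gene of neurons had 8538 counts in mutants and 12704 in wild-type. Its log2 fold change was -0.57 (SE 0.080) per the authors' deposited table, with an adjusted p of 3.5e-10 in the Wald test. The list's median was -0.040. Of 13 listed Sox genes none passed and none had an unadjusted p under 0.05 (Wald test), with a median of 0.089. Of their point estimates, 11 (84.6%) were above 0, against 50.1% of all genes. Of these 11, sox19b, at 52.3 in mutants and 42.7 in wild-type, was listed only through its mutant mean. The lowest larger group mean listed is 50.04, so the direction of sox19b was fixed by the listing. sox2 is also a marker, and sox8a, sox9a and sox9b are in the wider Müller glia list. sox11a and sox11b are in the gliosis and regeneration list below, so these lists are not independent. The Sox genes with the most counts were sox4a, at 2742 in mutants and 2589 in wild-type, and sox5, at 1385 in mutants and 1360 in wild-type (log2 fold change 0.081, SE 0.14, for sox4a and 0.027, SE 0.10, for sox5, per the authors' deposited table).

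The cavin and caveolin list, with the membrane-bending pacsins, had 7 listed genes, of which pacsin2 fell and none rose. pacsin2 had 241 counts in mutants and 678 in wild-type (log2 fold change -1.49, SE 0.13, per the authors' deposited table), with an adjusted p of 1.67e-28 in the Wald test. The cavins and caveolins proper lay from -0.010 for sdpra to 0.26 for its paralog sdprb on the log2 scale, and none of them passed.

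Genes linked to gliosis and regeneration gave no call. Of 42 such genes 24 were listed, and none rose or fell by the Wald test. At an unadjusted p under 0.05, 1 was higher and 4 were lower, against 3.76% and 4.54% of all genes. The list's median log2 fold change was 0.016. The listed genes with the most counts were hmga1a, a chromatin protein, at 4115 in mutants and 4011 in wild-type, and the homeobox gene six3b, at 2601 in mutants and 2532 in wild-type. Their log2 fold changes were 0.036 (SE 0.092) and 0.039 (SE 0.089) per the authors' deposited table. The early regeneration genes ascl1a and lin28a were searched for but are not among the genes listed. The same holds for mmp9, hbegfa, lepb, il11a and socs3a of this list. Whether these genes changed was not tested, and the lack of calls covers only the 24 listed genes. For the Notch pathway, which keeps Müller glia quiescent in adult zebrafish, none of 17 listed genes passed and the median was 0.16. At an unadjusted p under 0.05 in the Wald test, 3 were higher and none lower, against 3.76% and 4.54% of all genes. Among the 3 was her6, which with her9 and notch3 is also in the wider Müller glia list, so these lists are not independent. lfng, a glycosyltransferase that modifies Notch, had 1329 counts in mutants and 1101 in wild-type (log2 fold change 0.27, SE 0.12, per the authors' deposited table; Wald test adjusted p = 0.357). mib1, a ligase for Notch ligands, stood at 816 in mutants and 796 in wild-type, with a log2 fold change of 0.035 (SE 0.10) per the authors' deposited table.

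Other cells could carry some of the marker transcripts or change the share of glia in a sample. Of 20 microglia and leukocyte genes 7 were listed, and none passed the Wald test even without adjustment. All 7 point estimates were above 0, against 50.1% of all genes. Among the 7, coro1a had 56.5 counts in mutants and 44.7 in wild-type. The lowest larger group mean listed is 50.04, so coro1a could be listed only through its mutant mean. Its direction was thus fixed by the listing. The sum of the 7 genes was 3609 counts in mutants and 3256 in wild-type, most of it from aif1l alone. The counts of aif1l need not come from microglia, so the sum need not measure these cells. The most counted were aif1l, at 1963 in mutants and 1821 in wild-type, and the antigen presentation gene cd74a, at 647 in mutants and 554 in wild-type (log2 fold changes 0.11, SE 0.13, and 0.23, SE 0.12, per the authors' deposited table). apoeb lay in the other direction from these genes, but it did not pass either, and the part of microglia in the apoeb value was not tested. Of 21 endothelium and pericyte genes 10 were listed and none passed, also without adjustment, with a sum of 3040 counts in mutants and 2963 in wild-type. Point estimates were above 0 for 8 of the 10 (80%), with a median log2 fold change of 0.10. Of these 8, pecam1, at 51.5 in mutants and 48.4 in wild-type, was likewise listed only through its mutant mean. The most counted of the 10 genes were the vascular growth factor receptor kdr, at 837 in mutants and 892 in wild-type, and notch3, at 624 in mutants and 596 in wild-type. The log2 fold change was -0.093 (SE 0.11) for kdr and 0.068 (SE 0.12) for notch3, per the authors' deposited table. notch3 is also in the wider Müller glia and Notch lists, so its counts in this sum need not be vascular.

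The pigment epithelium is a layer that adheres to the outer retina. Of 16 genes linked to this layer or to melanin 11 were listed, and the median log2 fold change was -0.57. Not all of them need be particular to the pigment epithelium. By the Wald test 6 fell, none rose and 5 did not pass, while of all genes 1.21% fell and 0.879% rose. The sum was 19078 counts in mutants and 25056 in wild-type, most of it bhlhe40, a transcriptional repressor that did not pass (log2 fold change -0.27, SE 0.34, per the authors' deposited table) and is named after its value was seen. Without bhlhe40 the sum was 3939 in mutants and 6738 in wild-type. stra6, the retinol-binding protein receptor, fell to 488 in mutants, against 1191 in wild-type, and rpe65a, the retinoid isomerohydrolase, to 740 in mutants, against 1661 in wild-type. dct and pmela, for melanin and the melanosome, had 218 and 318 counts in mutants and 429 and 624 in wild-type. The 4 log2 fold changes per the authors' deposited table ran from -1.28 (SE 0.14) for stra6 to -0.96 (SE 0.15) for pmela. Among 16 listed genes shared by or specific to rods and cones, pde6h fell to 85618 in mutants, against 149895 in wild-type, and pde6g rose to 96131 in mutants, against 73793 in wild-type, with a list median of 0.016. These calls, like that of inaa and pacsin2, rest on the normal distribution. With the t distribution 1 gene of the whole table passed, a red opsin, and none of these. The mutated gene thrb, at -3.01 (SE 0.13) on the log2 scale per the authors' deposited table, did not pass there either. The part of such shifts between cell types in the Müller glia values was not tested.

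**Figure D4:**
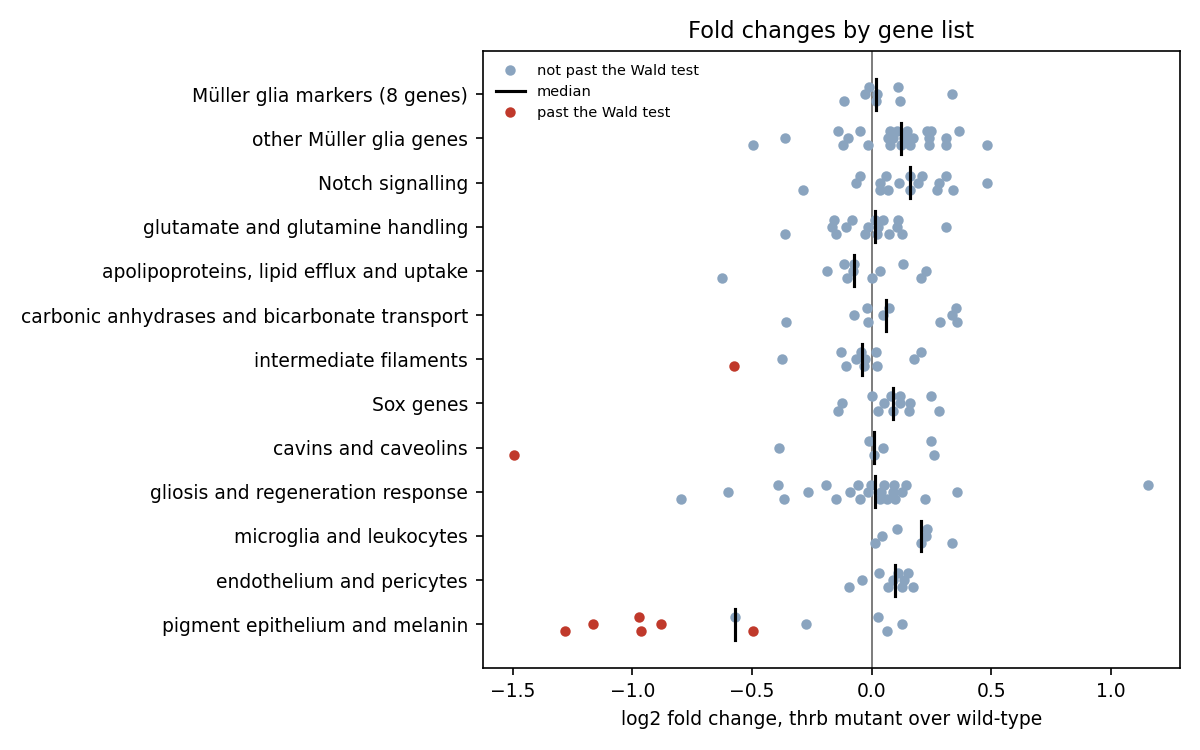
Log2 fold change (thrb mutant over wild-type) of each listed gene in the Müller glia markers and in 12 other lists, with genes past the Wald test in red and list medians as black bars. The 8 markers lie between -0.12 and 0.34 with none in red, and the pigment epithelium list holds 6 red genes with a median of -0.57.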

How the data were processed

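RNA from 6 retina samples was analysed through 1 table deposited by the authors. The tools in the submitters' processing notes, given there without order or settings, are DESeq2 1.18.1, R 3.4.3, HTSeq 0.9.1, STAR 2.7.2b and cutadapt 1.9.1, with danRer10 as the build. The sources used here do not give the annotation or any filter on low counts. Per the file headers and values, the authors deposited group means of normalized counts (a signal, not whole counts), log2 fold changes with standard errors, a score that counts the standard errors by which a change goes beyond 1 on the log2 scale, and p-values for it. The fold change differed from the log2 ratio of the group means by at most 0.030. Depth is unknown, so precision comes from the deposited standard errors.

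From these a Wald test against no change (scipy 1.17.1, Python 3.11.15) and 95% normal intervals were computed. The calling step of the test was run on simulated fold changes first. Their noise was drawn from the normal distribution with the deposited standard errors, so the simulation could not check either of these. The labels describe pools of fish without naming separate clutches or batches, so p-values measure only the spread between these samples, which may be partly technical. The members, the 15 other lists, the tests and the alternatives were chosen with earlier results of these data known. In each other list, up to 4 genes past the test were named, or the 2 with the most counts. Among list symbols, 4 were found through RefSeq synonyms (GRCz12tu).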

Additional observations from a re-analysis of the deposited data

How the results depend on the processing

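No paired analysis was possible because only group means are in the table, and leaving out each replicate was not run for the same reason. The counts of markers that rose and that fell in the Wald test were 0 under each of 8 alternatives: a t distribution, adjustment over the 13700 genes that the authors' adjusted p-values imply, the authors' test, mean counts of at least 100 or 500, centring, scaling, and ratios of group means with a pseudocount of 1. With the t distribution, the wider adjustment and the authors' test no call could be gained, so these counts of 0 were fixed in advance. The count past the authors' test was also 0 with its threshold at 0.1, likewise fixed by its p-values given above. The smallest adjusted p among the markers ran from 0.223 with a mean count of at least 500 to 0.999 against the t distribution, where 1 gene of the table passed, and it was 1 in the authors' test. Only centring, scaling and ratios of means can move a fold change; of the 24 marker values under these 3, 23 kept their direction. The exception was sdpra, at 0.0097 after scaling, which adds 0.020 to every log2 fold change. Centring takes only 0.00063 off each value. Under centring and scaling no marker but sdpra was near enough to 0 to change direction, so those directions were fixed in advance. The difference of glula from glulb can move only under ratios of means, where it was -0.14. Standard errors rest on 3 pooled samples a group. Under the normal distribution only estimates above the fold given for each marker could pass, and the t distribution asks for larger ones.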

Other observations

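The lens list had 2 of 14 genes in the table, and neither passed the Wald test. The crystallin gene cryabb had 65.0 normalized counts in mutants and 62.2 in wild-type, and cryba4 had 72.4 in mutants and 48.6 in wild-type. Their log2 fold changes were 0.074 (SE 0.37) and 0.58 (SE 0.32) per the authors' deposited table.

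Among the gliosis and regeneration genes, singled out after their values were seen, the lowest value was that of ctgfa, a matricellular protein gene responsive to YAP, with 86.0 counts in mutants and 150 in wild-type. Its log2 fold change was -0.80 (SE 0.25) per the authors' deposited table, and its adjusted p was 0.0614 in the Wald test. yap1 itself lay in the other direction, at 393 counts in mutants and 307 in wild-type (log2 fold change 0.36, SE 0.14, per the authors' deposited table; Wald test adjusted p = 0.254). The immediate early gene fosab had 179 counts in mutants and 80.3 in wild-type, but an SE of 0.80 on the log2 scale per the authors' deposited table, so its interval ran from -0.42 to 2.73.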
